A study of Mus musculus with 10 samples.

Results

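The genes described here encode subunits of the mitochondrial respiratory chain and of its ATP synthase, the machinery of oxidative phosphorylation. The rules used the name alone and no measured value, but they were set with earlier results of these data known. They took every gene whose symbol began with mt-, and every gene whose symbol fell into the Nduf, Sdh, Uqcr, Cox4 to Cox8 or Atp5 families. These rules found 91 of the 14796 named genes, of which 13 were encoded in mitochondrial DNA and 78 in the nucleus. The 13 mitochondrial genes made up 7 subunits of complex I, 1 of complex III, 3 of complex IV and 2 of complex V. By symbol alone, the nuclear genes were listed as 36 with complex I, 4 with complex II, 8 with complex III, 13 with complex IV and 17 with complex V. Ndufa4l2 was placed with complex I only through its Nduf symbol. The name rule also took in genes that are not core subunits: Atp5s and Atp5sl carry the Atp5 name but are not ATP synthase subunits, and Cox7a2l is a factor that joins complexes into supercomplexes. Cyc1 and Ndufab1, a cytochrome and an acyl carrier protein of the chain, fall outside the names and were counted among the related genes instead.

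Complexes I to IV pass electrons from NADH and succinate to oxygen, all but complex II pump protons as they do so, and complex V, the ATP synthase, uses the proton gradient to make ATP. Complexes I, III, IV and V are built from subunits of both genomes. The mitochondrial subunits are cut from long transcripts made by the mitochondrial RNA polymerase, Polrmt, whereas the nuclear subunits are made by RNA polymerase II as separate messages. Complex II is encoded in the nucleus alone.

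Total RNA was sequenced from the telencephalon, the embryonic forebrain that gives rise to the cerebral cortex, dissected from mice at E12. The 10 samples were 2 labelled null for Polr1a with 2 wild types, all with titles of the form Polr_2048, and 3 labelled with a missense allele of Polr1a, p.C1559F, with 3 wild types, all with titles of the form Polr_2138. Polr1a is the largest subunit of RNA polymerase I, which makes ribosomal RNA. Zygosity, strain, the way the alleles were made and the meaning of the title numbers were not given in the sources used here. Nothing says that samples came from separate litters, so a p-value speaks only of the spread among the samples at hand, which may be technical. The comparisons were made within a title number, and the groups that share one are called the null set and the missense set below. Samples are numbered within their group.

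All values are log2 levels as deposited, which sum to nearly the same total in every sample once back-transformed, with a floor of -3.16 and a highest value of 13.07. Sequencing depth is unknown, so no counting error can be given. Polr1a itself was at 5.38 and 5.38 in the null-set wild types and at 4.99 and 4.82 in the null samples, and at 5.62, 5.52 and 5.64 in the missense-set wild types and at 5.09, 5.66 and 5.79 in the missense samples. Of the telencephalon markers, Emx1, a transcription factor of its dorsal part, lay between 5.45 and 5.90 in all 10 samples, and Tbr1, a transcription factor of early cortical neurons, between 7.19 and 7.87. Across all genes, limma called 24 (0.162%) in the null comparison and 3 (0.0203%) in the missense comparison at a Benjamini-Hochberg adjusted p under 0.05. In bulk RNA, fewer cells of a type and less RNA per cell cannot be told apart. With 2 samples a group, 22.9% of all genes had null samples above both wild types and 14.8% below both. For marker lists of cell types, the summed level kept null and wild type apart for 7 of 8 lists, all but the erythroid one. For 12 microglia and macrophage genes it was 0.00629 to 0.00701% of the total in the wild types and 0.0134 to 0.0139% in the null samples, with P2ry12 at the floor in both wild types. It was also higher in null for 12 mesenchyme genes (0.1945 to 0.225% against 0.279 to 0.372%), 12 endothelium and pericyte genes (0.0305 to 0.0311% against 0.0339 to 0.0431%) and 11 neural genes from outside the telencephalon (0.0125 to 0.0159% against 0.0213 to 0.0317%). It was lower in null for 12 telencephalon genes (0.179 to 0.201% against 0.1495 to 0.158%), 12 neuron genes (0.389 to 0.443% against 0.331 to 0.369%) and 12 progenitor genes (0.577 to 0.596% against 0.539 to 0.561%). The telencephalon genes did not move as one: 8 of the 12 were lower in null by group mean and 4 were higher. Among the higher was Emx2, at 6.48 and 6.40 in wild type and 6.64 and 6.67 in null. Of the lower ones 4 passed the adjusted threshold, among them Dlx1, Dlx2 and Dlx5, transcription factors of the ventral telencephalon. In the missense set 6.02% of all genes had all missense samples above all wild types and 4.89% below. There 2 of the 8 lists kept the groups apart. The microglia sum was 0.00834 to 0.00981% in wild type and 0.0114 to 0.0136% in missense, and the telencephalon sum 0.178 to 0.187% against 0.145 to 0.171%. The part of such cells in the levels below was not tested.

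The central comparison asked whether the mitochondrial and nuclear encoded sides of the same machinery kept step with each other in the mutants. No member passed the adjusted threshold in either mutant, in either class. In the null samples 10 of 13 mitochondrial members lay higher than in wild type, with a median log2 difference of 0.24, while 65 of 78 nuclear members lay lower, with a median of -0.17. The median over all genes was 0.03. In the missense samples 10 of 13 mitochondrial members lay higher, with a median of 0.05, and 67 of 78 nuclear members lay lower, with a median of -0.11, against 0.02 over all genes. After median centring or quantile normalization, 8 of 13 mitochondrial members were higher in the missense samples. The class gap, the median log2 level of the mitochondrial members minus that of the nuclear members in a sample, differed from wild type by 0.31 in the null and by 0.14 in the missense comparison, beside a pooled SD between replicates of 0.26. Taken from median deviations in place of median levels, the gap differed by 0.38 and 0.155.

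**Figure D1:**
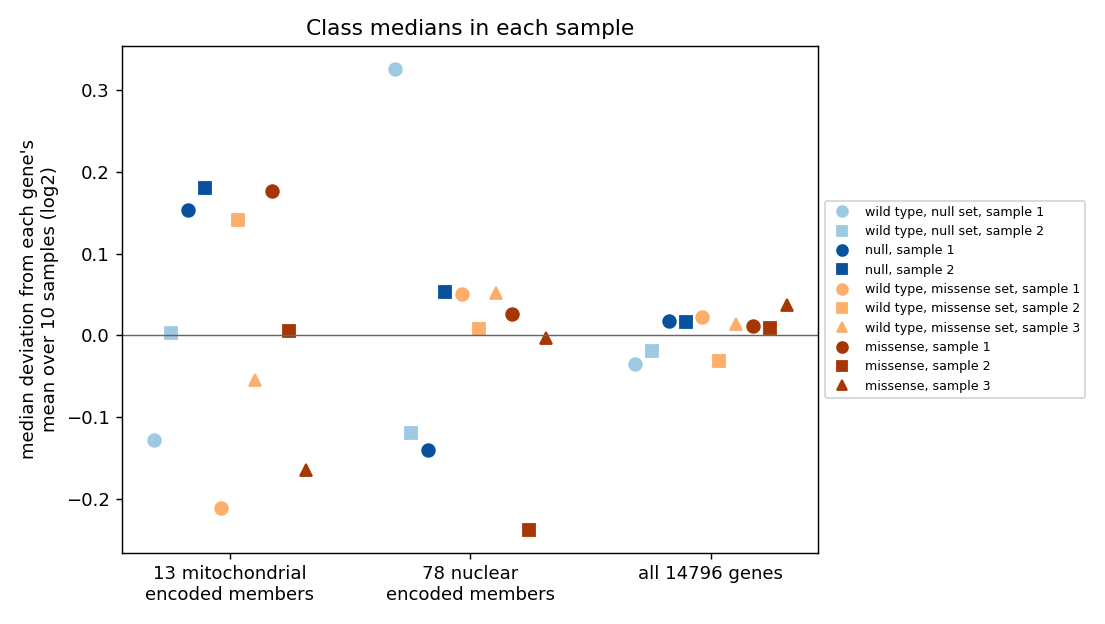
Median deviation (log2) of the members of each class, and of all genes, from each gene's mean over the 10 samples; each point is a sample. For the nuclear members wild type sample 1 of the null set lies apart at 0.33 and missense sample 2 at -0.24, while for the mitochondrial members both null samples lie above both wild types of their set.

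The nuclear part of that gap depended most on a single wild type. Wild type 1 of the null set had a median nuclear deviation of 0.33 and wild type 2 had -0.12, while null samples 1 and 2 had -0.14 and 0.05. The null values thus lay near wild type 2 and far below wild type 1. Without wild type 1 the nuclear median was 0.09 in place of -0.17 and 59 of 78 members lay higher in the null samples instead of 13. The class gap was then -0.01 from median levels and 0.09 from median deviations. Without wild type 2 the nuclear median was -0.38 and the gap 0.63 from levels and 0.66 from deviations. The null samples mattered too. Without null sample 1, 33 of 78 nuclear members lay higher and the gap was 0.29 from deviations. Without null sample 2 these values were 11 and 0.46.

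The mitochondrial part did not turn on either wild type. Its median deviation was -0.13 and 0.00 in the null-set wild types and 0.15 and 0.18 in the null samples. The groups did not overlap, and the median difference was 0.20 to 0.33 in each of the 4 pairs of a null with a wild-type sample. Without wild type 1 it was 0.18, with 13 of 13 members higher. As a share of the total, the 13 genes took up 1.97 and 2.25% in the wild types and 2.50 and 2.62% in the null samples. The shares in the missense set, 2.04, 2.54 and 2.23% in wild type and 2.58, 2.34 and 2.05% in missense, overlapped. Null sample 1 lay under the highest wild type of the missense set, and null sample 2 was the highest of all 10 samples.

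The nuclear members took up a smaller part of the total. Their summed share was 0.878 and 0.656% in the null-set wild types, and 0.656 and 0.735% in the null samples. In the missense set it was 0.724, 0.716 and 0.719% in the wild types, and 0.715, 0.632 and 0.721% in the missense samples. The ratio of the mitochondrial to the nuclear sum was 2.24 and 3.43 in the null-set wild types, 3.80 and 3.56 in the null samples, 2.81, 3.55 and 3.11 in the missense-set wild types, and 3.60, 3.71 and 2.85 in the missense samples. The null samples exceeded their wild types, but the wild types alone spanned 2.24 to 3.55.

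The mitochondrial genes are described first, in the order of the complexes. Per kilobase of coding length, mt-Co1, the catalytic core of cytochrome c oxidase, was the most abundant at 4960 linear units, followed by mt-Atp6 at 3272, mt-Co3 at 2989, mt-Cytb at 2489 and mt-Nd1 at 2442. mt-Nd4 was at 1931, mt-Nd2 at 886, mt-Nd4l at 756, mt-Co2 at 648, mt-Nd3 at 616, mt-Nd5 at 541 and mt-Nd6, the only one of the 13 on the other strand, at 519. mt-Atp8 was lowest at 167.

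**Figure D2:**
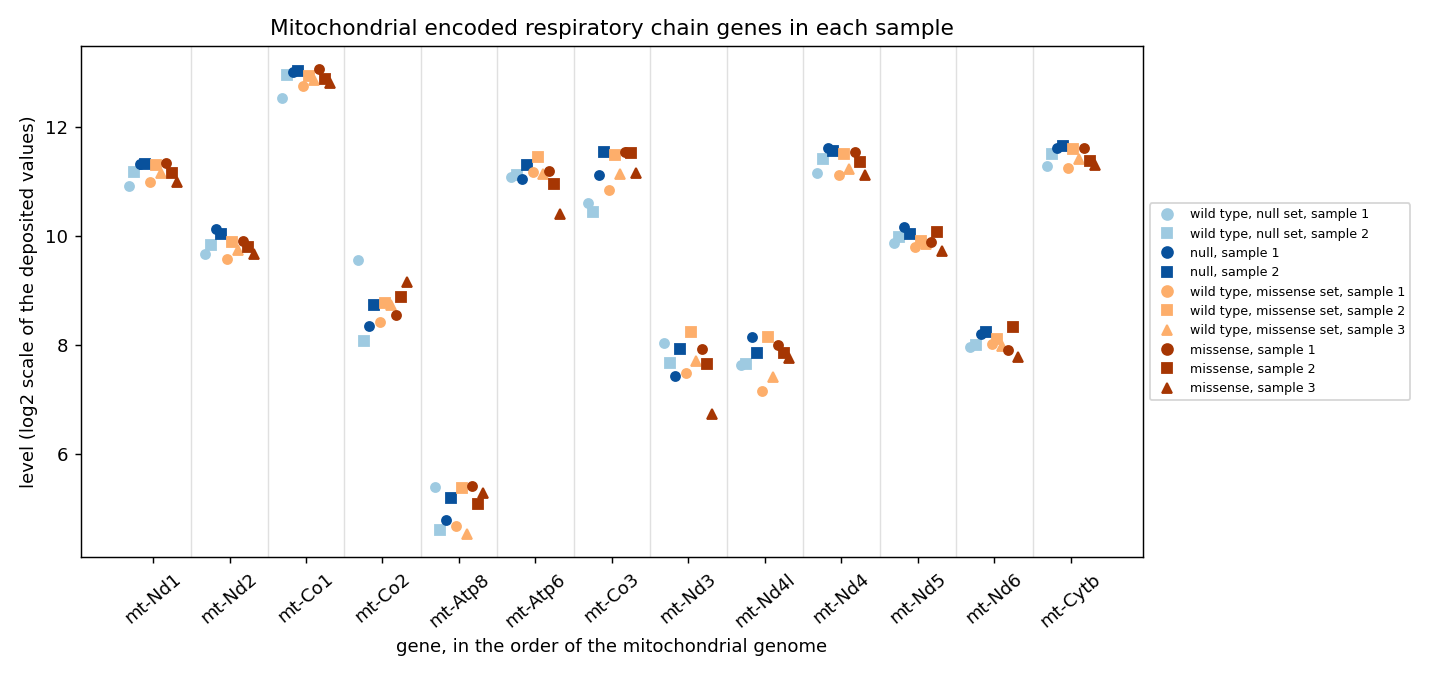
Level of each mitochondrial encoded gene in each of the 10 samples (log2 scale of the deposited values), with genes in the order of the mitochondrial genome. mt-Co3 is lowest in both wild types of the null set, mt-Co2 is highest in wild type sample 1 of the null set at 9.57, and mt-Atp6 and mt-Nd3 are lowest in missense sample 3 at 10.41 and 6.73.

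The neighbours mt-Atp8 and mt-Atp6 overlap, and so do mt-Nd4l and mt-Nd4. They are shown because a read from the shared bases matches both genes, and how such reads were assigned was not given in the sources used here. Ends of the upstream genes and the starts of the downstream genes were taken from GENCODE M21 transcripts. Capitals mark the shared bases, 43 in the mt-Atp8 and mt-Atp6 pair and 7 in the mt-Nd4l and mt-Nd4 pair, each within a stretch of 60.
mt-Atp8 end: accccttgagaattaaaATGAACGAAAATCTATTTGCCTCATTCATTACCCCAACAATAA
mt-Atp6 start: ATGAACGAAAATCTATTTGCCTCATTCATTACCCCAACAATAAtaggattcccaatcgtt
mt-Nd4l end: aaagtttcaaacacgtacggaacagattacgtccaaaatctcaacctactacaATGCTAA
mt-Nd4 start: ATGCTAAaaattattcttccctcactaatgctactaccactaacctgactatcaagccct
The coding length of mt-Atp8 was 201 bases, so the shared run is a large part of that gene and a small part of mt-Atp6, with 678. mt-Atp8 and mt-Atp6 encode ATP synthase subunits from 1 shared message, yet the measured level per kilobase of mt-Atp6 was far above that of mt-Atp8. In the missense comparison these neighbours also lay on opposite sides, mt-Atp8 at 0.40 (SE 0.25) and mt-Atp6 at -0.40 (SE 0.17). Levels of the short mitochondrial genes are therefore uncertain.

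Complex I has 7 mitochondrial subunits, which form its proton pumping arm. mt-Nd2 was at 9.68 and 9.85 in the null-set wild types and at 10.14 and 10.04 in the null samples. Its groups did not overlap, and the null values were also the highest of all 10 samples. The log2 difference was 0.33 (SE 0.12), with a limma adjusted p of 0.456. mt-Nd1 was at 10.93 and 11.18 in wild type and at 11.33 and 11.34 in null, a difference of 0.28 (SE 0.14). mt-Nd4 was at 11.16 and 11.42 against 11.63 and 11.56, a difference of 0.31 (SE 0.15). In all 3 the null samples stood close together and above both wild types.

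mt-Nd4l, the short gene that overlaps mt-Nd4, was at 7.64 and 7.65 in wild type and at 8.15 and 7.86 in the null samples, a difference of 0.36 (SE 0.25). mt-Nd5 was at 9.88 and 9.99 against 10.17 and 10.05, and mt-Nd6 at 7.96 and 7.999 against 8.21 and 8.23, differences of 0.18 and 0.24. The exception was mt-Nd3, at 8.04 and 7.68 in wild type and 7.43 and 7.93 in null, where the groups overlapped. In the missense comparison the 7 genes differed by -0.37 (mt-Nd3) to 0.30 (mt-Nd4l), and no gene had groups that did not overlap. mt-Nd3 was low in missense sample 3, at 6.73, beside 7.93 and 7.65 in the other missense samples and 7.49 to 8.24 in the wild types.

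mt-Cytb, the mitochondrial subunit of complex III, was at 11.29 and 11.51 in the null-set wild types and at 11.62 and 11.66 in the null samples, a difference of 0.24 (SE 0.13). The groups did not overlap. In the missense set its wild types were at 11.26, 11.61 and 11.41 and the missense samples at 11.63, 11.38 and 11.30, which overlapped. It was the steadiest of the 13 genes, with a range of 0.40 over all samples.

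Complex IV held the mitochondrial member with the largest difference. mt-Co3, a structural subunit of cytochrome c oxidase, was at 10.60 and 10.45 in the null-set wild types and at 11.13 and 11.55 in the null samples, a difference of 0.82 (SE 0.20) with a limma adjusted p of 0.211. The missense-set wild types were at 10.85, 11.49 and 11.14 and the missense samples at 11.55, 11.53 and 11.16. The null-set wild types were thus the lowest of all 10 samples, and null sample 1 lay among the wild types of the other set, with null sample 2 just above them. The wild types of the 2 sets differed in this gene by 0.64 (SE 0.19, adjusted p 0.488), a comparison that shares the null-set wild types with the null comparison. Leaving out each sample in turn gave null differences of 0.60 to 1.03.

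mt-Co1 was at 12.54 and 12.96 in the null-set wild types and 13.02 and 13.04 in the null samples, a difference of 0.28 (SE 0.13, adjusted p 0.633). Only wild type 1 stood well below the null samples. mt-Co2 went the other way in that library: it was at 9.57 in wild type 1 and 8.07 in wild type 2, with the null samples between them at 8.36 and 8.75. In the missense comparison mt-Co1, mt-Co2 and mt-Co3 differed by 0.07, 0.23 and 0.25, and each overlapped with wild type.

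For complex V, mt-Atp6, the proton channel subunit, was at 11.09 and 11.14 in the null-set wild types and at 11.05 and 11.32 in the null samples. In the missense set it was at 11.18, 11.45 and 11.14 in the wild types and at 11.19, 10.96 and 10.41 in the missense samples. Missense samples 2 and 3 were below every wild type and missense sample 1 was among them (adjusted p 0.884). mt-Atp8 was at 5.39 and 4.60 in the null-set wild types and at 4.79 and 5.19 in the null samples, with no order between the groups.

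**Figure D3:**
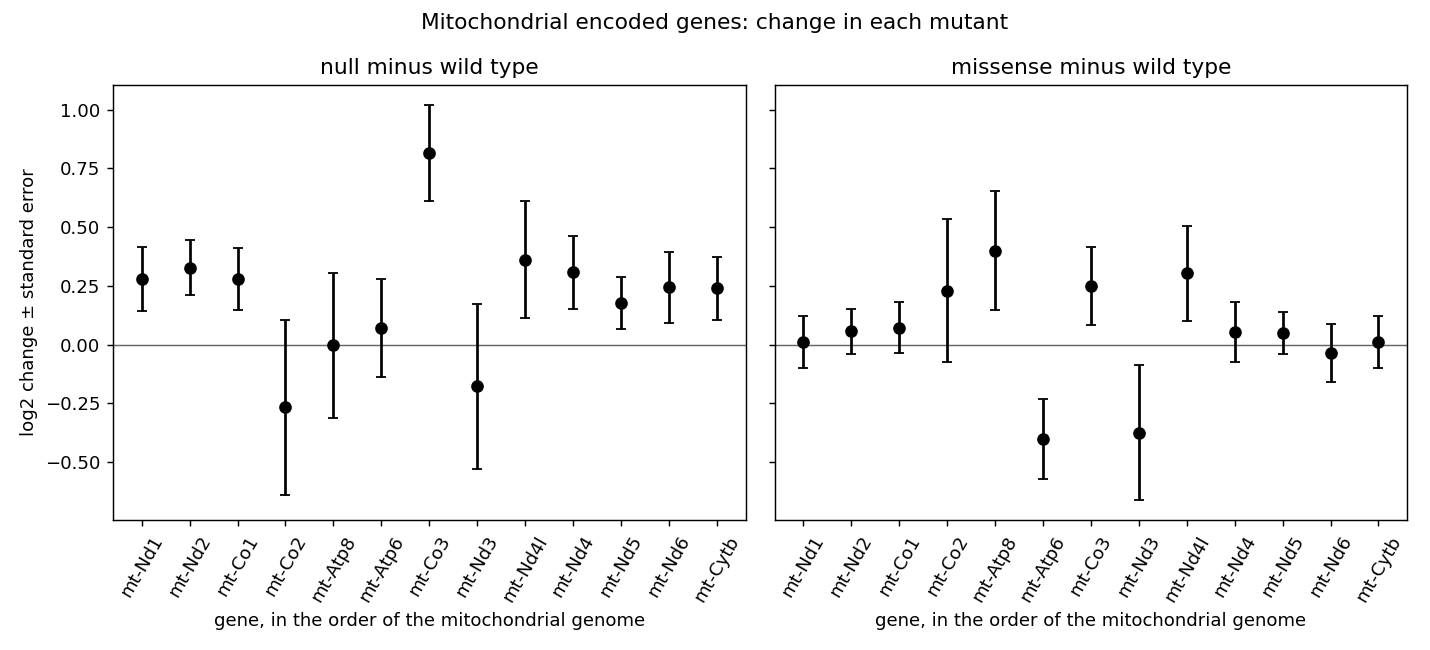
Log2 difference and its standard error for each mitochondrial encoded gene, with null minus wild type of the null set on the left and missense minus wild type of the missense set on the right. In the null comparison mt-Co3 is highest at 0.82 and most other genes lie between 0.18 and 0.36, while in the missense comparison mt-Atp6 lies at -0.40 and mt-Atp8 at 0.40.

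Across the class, 9 of 13 mitochondrial members (69.2%) had null samples above both wild types, and none had null samples below both. The 9 were mt-Co1, mt-Co3, mt-Cytb, mt-Nd1, mt-Nd2, mt-Nd4, mt-Nd4l, mt-Nd5 and mt-Nd6. Over all genes tested, 22.9% were higher in this way and 14.8% lower. Without wild type 1 of the null set the count, which cannot fall when a sample is left out, was 11 of 13, beside 39.6% of all genes. These genes share transcripts, so they are not independent of each other. In the missense comparison no mitochondrial member had groups that did not overlap, beside 6.02% of all genes higher and 4.89% lower.

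By limma's unadjusted p under 0.05 the null comparison held 2 of 13 mitochondrial and 3 of 78 nuclear members, beside 8.32% of all genes. The missense comparison held 1 and 2, beside 5.54%. For the nuclear class these shares were below the background. The difference between the null and the missense effects, for which 0.0135% of all genes were called, gave no called member, and mt-Co3 at 0.57 (SE 0.26, adjusted p of 1) had the smallest p among the mitochondrial genes. Among the nuclear genes Atp5sl at 0.74, Ndufs3 at -0.49 and Ndufc1 at -0.60 had the smallest p. The comparison of the wild types of both sets (0.0946% of all genes called) also gave no called member, and Atp5sl, at 0.61 (SE 0.17, adjusted p 0.472), had the smallest p there.

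The nuclear members were far less abundant per kilobase of coding length than most mitochondrial ones. Untranslated parts of the messages were not counted in the length, which limits comparisons between genes. Atp5b, the catalytic beta subunit of ATP synthase, was highest at 586 linear units, and Cox7c, a small subunit of complex IV, reached 572. In complex I the highest was Ndufa7 at 166, in complex II Sdhc, a membrane anchor, at 220, and in complex III Uqcrh, the hinge protein, at 328. The lowest of complex II was the flavoprotein Sdha at 97.4 and of complex III the core protein Uqcrc2 at 105. Ndufa9, a complex I subunit, was at the floor in 6 of 10 samples, so its values carry little information, and Atp5s, a coupling factor, was at the floor in 2.

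Much of the variation of the nuclear members was shared among them and set single libraries apart. Wild type 1 of the null set was the highest sample for 54 of 78 nuclear members, beside 11.6% of all genes. Missense sample 2 was the lowest for 31, a count for which no share over all genes was taken. Its median nuclear deviation was -0.24, beside 0.01 over all genes. Between wild types 1 and 2 of the null set, which share a genotype, 69 of 78 members were higher in sample 1, with a median log2 difference of 0.41, whereas the median over all genes was -0.01 and over the mitochondrial members -0.04. Red blood cell genes moved with these libraries in part: the summed level of 12 erythroid genes was 0.858% in wild type 1 and 0.542% in wild type 2, but 0.743 and 0.883% in the null samples. Their part in the nuclear levels was not tested.

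**Figure D4:**
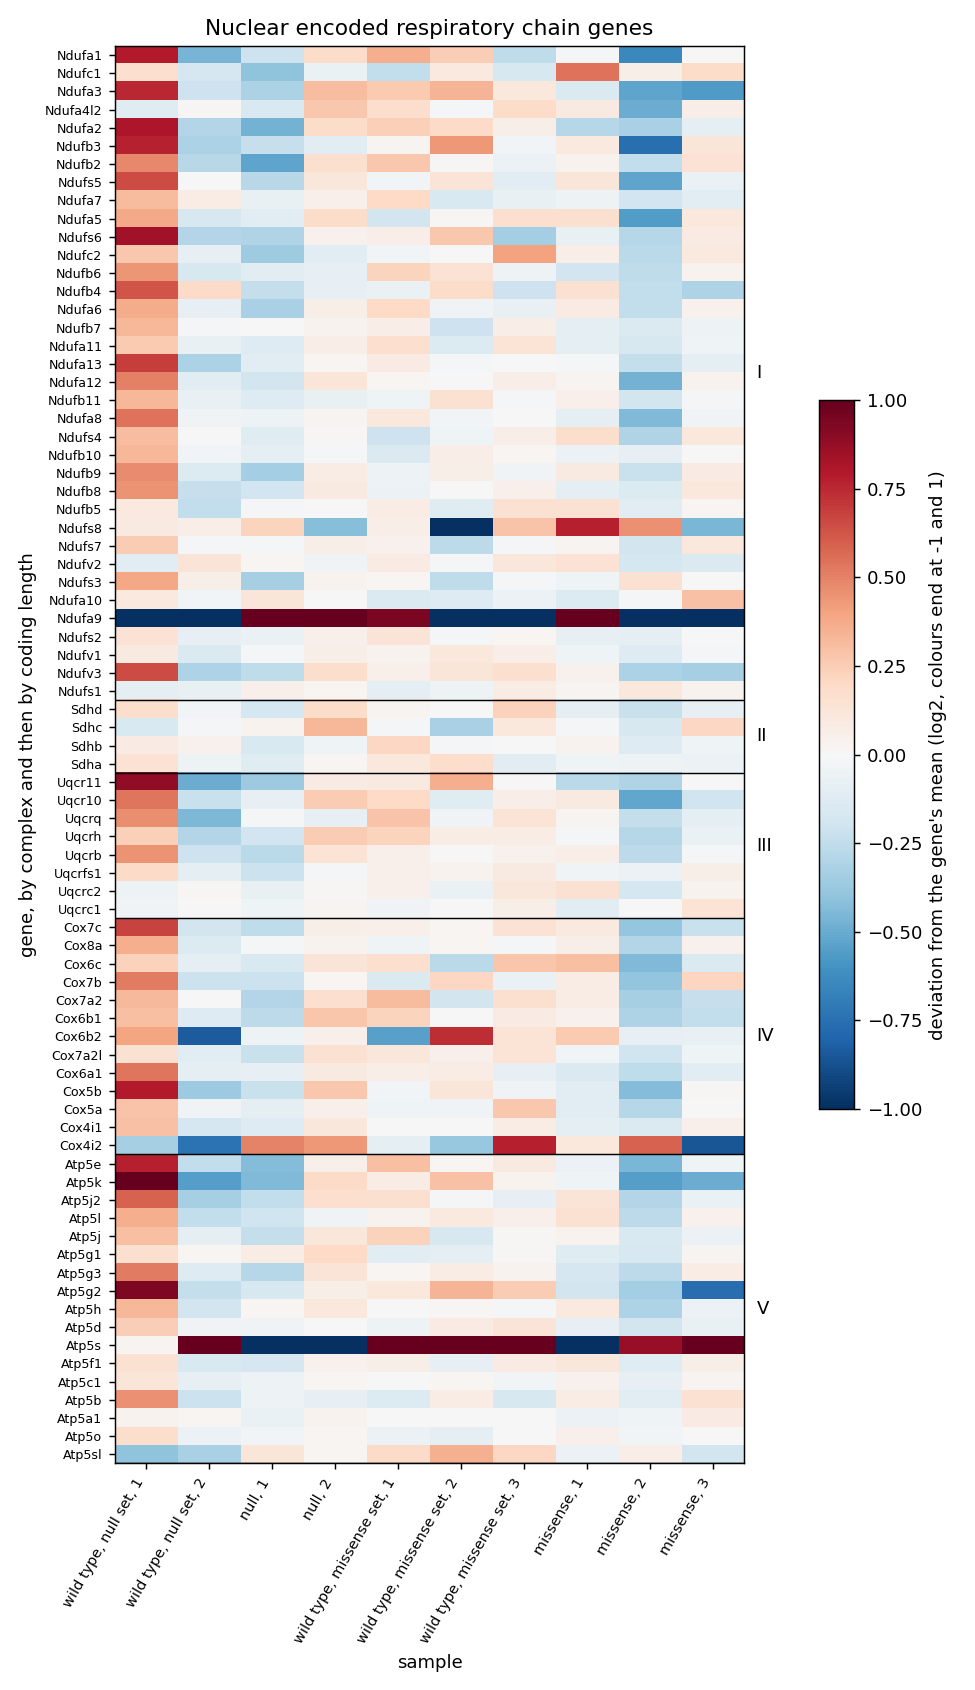
Deviation of each nuclear encoded member from its mean over the 10 samples (log2, colours end at -1 and 1), with genes ordered by complex and then by coding length and samples in columns. Wild type sample 1 of the null set is red for most genes and missense sample 2 is blue for most. Short genes, at the top of each complex, often deviate more than long ones, with exceptions such as Atp5s and Ndufa9.

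The deviation followed the length of the coding sequence. Among members with coding sequences of up to 300 bases the difference between wild types 1 and 2 was 0.86 at the median (18 of 19 higher). It was 0.46 for those above 300 and up to 600 bases (36 of 38), 0.23 for those up to 900 bases (7 of 8) and 0.13 for those above 900 bases (7 of 11). Other genes of the same lengths showed the same order with smaller values, 0.30, 0.20, 0.10 and -0.05. Spearman's correlation of coding length with this difference was -0.60 over 76 members and -0.26 over 13780 other genes, as a description over genes that share the same libraries. For missense sample 2 the order was opposite: members of up to 300 bases deviated by -0.33 and those above 900 bases by -0.10, beside -0.15 and 0.03 in other genes. Coding length also went with the mutant differences. Spearman's correlation with the missense difference was 0.52 over the members and 0.06 over other genes. With the null difference it was 0.36 and 0.105, and -0.28 and -0.07 without wild type 1.

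**Figure D5:**
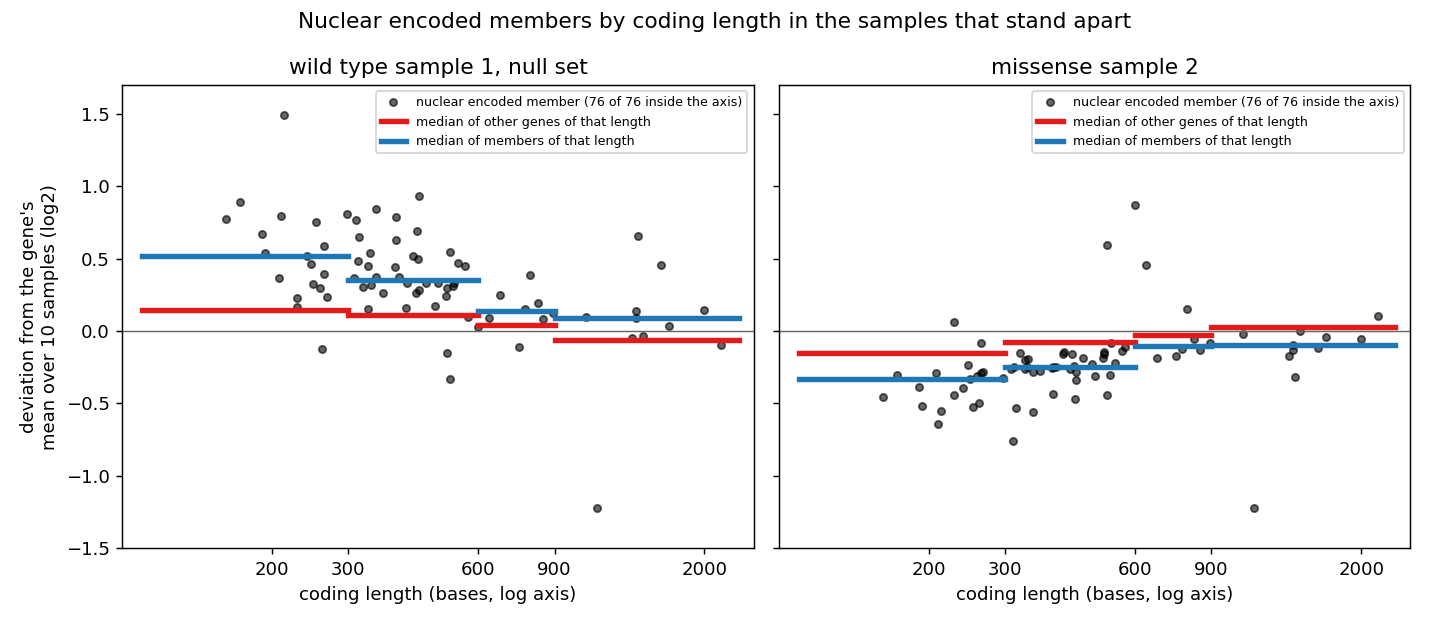
Deviation (log2) of each nuclear encoded member with a known coding length from its mean over the 10 samples, against coding length in bases on a log axis, in wild type sample 1 of the null set and in missense sample 2. Blue and red bars are medians of members and of other genes of that length; short members lie highest in the wild type (median 0.52) and lowest in the missense sample (-0.33).

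Within a complex long members often varied less than short ones, with exceptions. In ATP synthase Atp5a1, the long alpha subunit, ranged over 0.15 in all 10 samples, from 9.45 to 9.60, the smallest range of the 78. Its long catalytic partner Atp5b ranged over 0.67, with wild type 1 highest at 10.30 and wild type 2 lowest at 9.63. The small subunit Atp5k, also called e, ranged over 2.04. Atp5k was at 5.74 and 3.70 in the null-set wild types and at 3.82 and 4.45 in the null samples. It was at 4.33, 4.55 and 4.29 in the missense-set wild types and at 4.21, 3.70 and 3.76 in the missense samples. Wild type 1 was far above every other sample, and the missense samples lay below all wild types of their set.

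In complex II, the flavoprotein Sdha, the longest at 1992 bases, ranged over 0.29 and the iron-sulphur subunit Sdhb over 0.36. In complex III the core protein Uqcrc1, with 1440 coding bases, ranged over 0.25, whereas Uqcr11, with 168, ranged over 1.38. Uqcr11 was at 5.97 and 4.59 in the null-set wild types and at 4.72 and 5.16 in the null samples. In complex I Ndufs1, the longest, ranged over 0.20 and Ndufa1, with 210 bases, over 1.44, but Ndufv3, with 1404 bases, ranged over 0.99, from 5.85 in wild type 1 to 4.86 in missense sample 3. In complex IV Cox5b, with 387 bases, was at 6.89 and 5.74 in the null-set wild types and at 5.88 and 6.37 in the null samples. In each of these short genes wild type 1 was highest and the null samples lay between the wild types.

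Promoters of Atp5k, Atp5g2 and Uqcrc1 are printed because each holds the exact motif of NRF1, a nuclear factor known for regulating respiratory chain genes, while their levels varied very differently. The bases, 250 before to 50 after the start, were taken from RefSeq in GRCm38.p6, 5′ to 3′ on the gene's strand, and capitals mark the motif GCGCATGCGC, which reads the same on both strands.
Atp5k, chr5:108434350-108434649, minus strand: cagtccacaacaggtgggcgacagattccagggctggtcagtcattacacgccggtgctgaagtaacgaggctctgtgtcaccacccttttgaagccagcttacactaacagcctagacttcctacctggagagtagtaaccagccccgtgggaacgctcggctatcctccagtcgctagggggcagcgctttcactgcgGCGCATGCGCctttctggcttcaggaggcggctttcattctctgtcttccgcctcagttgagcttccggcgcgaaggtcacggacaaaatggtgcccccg
Atp5g2, chr15:102670998-102671297, minus strand: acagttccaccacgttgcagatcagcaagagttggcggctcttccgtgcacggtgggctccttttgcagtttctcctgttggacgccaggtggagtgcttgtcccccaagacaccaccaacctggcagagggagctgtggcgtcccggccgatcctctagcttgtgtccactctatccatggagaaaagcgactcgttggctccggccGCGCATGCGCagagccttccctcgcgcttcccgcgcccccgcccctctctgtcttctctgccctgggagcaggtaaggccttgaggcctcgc
Uqcrc1, chr9:108936398-108936697, plus strand: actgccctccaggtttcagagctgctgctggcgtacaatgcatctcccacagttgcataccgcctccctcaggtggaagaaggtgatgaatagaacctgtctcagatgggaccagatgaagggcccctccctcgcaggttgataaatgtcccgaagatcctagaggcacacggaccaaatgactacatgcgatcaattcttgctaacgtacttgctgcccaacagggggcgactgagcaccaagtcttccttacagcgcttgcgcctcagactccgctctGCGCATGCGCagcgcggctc
Of 78 nuclear members 65 matched a promoter, and 5 of these (7.69%) held the exact motif, beside 1.07% of all 27025 genes in the table and 2.16% of the 10847 measured genes that matched by symbol. The other two were Cox6a1 and Ndufa11. With any base at the variable position, GCGCANGCGC on both strands, which includes the exact motif, the shares were 26.2%, 5.19% and 10.5%. The motif CCGGAAG of the GABP family, on both strands, was in 24.6% of members, 9.93% of all genes and 17.9% of measured genes. A match describes letters in the window only. Atp5k and Atp5g2 ranged over 2.04 and 1.69 in these samples, and Uqcrc1 over 0.25, so members with the same letters could be among the most and the least variable.

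By complex, the nuclear members of complex I had a median of -0.21 in the null comparison (30 of 36 lower), complex II -0.08 (3 of 4), complex III -0.07 (6 of 8), complex IV -0.10 (11 of 13) and complex V -0.17 (15 of 17). In the missense comparison the medians were -0.10 (28 of 36 lower), -0.11 (3 of 4), -0.16 (8 of 8), -0.19 (13 of 13) and -0.09 (15 of 17).

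Members with null samples outside the null-set wild types were few. In complex I, Ndufb4, an accessory subunit, was at 4.88 and 4.44 in wild type and at 4.01 and 4.16 in null, a difference of -0.57 (SE 0.23) with a limma adjusted p of 0.530. Ndufs3, a core subunit, was at 6.07 and 5.74 against 5.34 and 5.71, a difference of -0.37 (SE 0.17, adjusted p 0.599). Ndufc2 was at 6.10 and 5.76 against 5.48 and 5.73, a difference of -0.32 (SE 0.19, adjusted p 0.727). In all 3 the null samples were below both wild types, and in Ndufs3 and Ndufc2 null sample 2 lay only just under wild type 2.

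Ndufa9 was listed at the floor in both wild types and at 0.16 and -0.82 in the null samples, but missense sample 1 and wild type 1 of the missense set were also above the floor, at 1.24 and -0.99. Atp5s was at 0.44 and 1.98 in wild type and at -1.21 and the floor in null (adjusted p 0.556), and missense sample 1 was at the floor too. Neither gene's values near the floor allow a size to be given. Atp5sl, which despite its symbol is not a subunit of ATP synthase, was at 3.33 and 3.41 in wild type and at 3.86 and 3.75 in null, a difference of 0.43 (SE 0.19, adjusted p 0.581). The null-set wild types were the lowest of all 10 samples, as with mt-Co3.

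In all, 5 of 78 nuclear members (6.41%) had null samples above both wild types, beside 22.9% of all genes, and 7 (8.97%) had null samples below both, beside 14.8%. The 5 were Atp5sl, Cox4i2, Ndufa9, Ndufs1 and Sdhc, and the 7 were Atp5s, Ndufa7, Ndufb11, Ndufb4, Ndufc2, Ndufs3 and Sdhb. Counts of this kind cannot fall when a sample is left out. Without wild type 1 the counts were 38 higher and 8 lower, beside 39.6% and 31.7% of all genes. The nuclear counts were thus below the background with both wild types, and the count higher exceeded it only without wild type 1.

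In the missense samples the nuclear members leaned one way. The missense samples were all below all 3 wild types of the missense set for 15 of 78 members (19.2%), beside 4.89% of all genes, and none was above, beside 6.02%. The 15 were Atp5d, Atp5e, Atp5g2, Atp5k, Atp5sl, Cox6a1, Cox7a2l, Ndufa13, Ndufa2, Ndufa3, Ndufa8, Ndufv1, Ndufv3, Sdhd and Uqcrh. The shares over all genes were not matched for coding length. The missense median was -0.25 for members of up to 300 bases and -0.002 for those above 900. In other genes of these lengths it was -0.06 and 0.03. The part of length in the count was not tested. Without missense sample 2, the library with the lowest median nuclear deviation, the same 15 nuclear members (19.2%) lay lower, beside 9.58% of all genes. That count cannot fall when a sample is left out, so it does not show the part of that library. Another 6 nuclear members (7.69%) lay higher, beside 12.4%. Of the 13 mitochondrial members 1, mt-Nd6, then lay lower. The nuclear median without that sample was -0.04 in place of -0.11 and 46 of 78 members were lower instead of 67. The class gap was -0.02 in place of 0.14 from median levels, and 0.07 in place of 0.155 from median deviations. No member passed the adjusted threshold either way.

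Ndufa3, an accessory subunit of complex I, was at 4.90, 4.97 and 4.73 in the missense-set wild types and at 4.48, 4.11 and 4.06 in the missense samples, a difference of -0.65 (SE 0.25) with a limma adjusted p of 0.884. Atp5g2, 1 of 3 genes for the ring-forming c subunit of ATP synthase, was at 4.90, 5.13 and 5.04 against 4.60, 4.45 and 4.03, a difference of -0.66 (SE 0.26, adjusted p 0.884). All missense samples were below all wild types for both genes, with missense sample 1 nearest to them. In the null set the same genes went from 5.39 and 4.43 to 4.31 and 4.94 (Ndufa3), and from 5.72 and 4.55 to 4.63 and 4.85 (Atp5g2), with overlap.

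The other 2 genes for the c subunit encode the same mature protein. Per kilobase Atp5g3 was at 306, Atp5g1 at 165 and Atp5g2 at 66.1, so Atp5g3 carried most of the message. Atp5g3 was at 7.02, 7.07 and 7.03 in the missense-set wild types and at 6.83, 6.73 and 7.07 in the missense samples, and Atp5g1 at 5.95, 5.98 and 6.08 against 5.95, 5.91 and 6.10. Neither kept its groups apart.

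Sdhd, a membrane anchor of complex II, was at 6.19, 6.16 and 6.39 in the wild types and at 6.06, 5.94 and 6.08 in the missense samples, a difference of -0.22 (SE 0.12, adjusted p 0.902). Atp5d, the delta subunit, was at 6.97, 7.10 and 7.15 against 6.94, 6.84 and 6.95, a difference of -0.17 (SE 0.09, adjusted p 0.902). Atp5sl was at 3.93, 4.09 and 3.94 against 3.68, 3.80 and 3.55, a difference of -0.31 (SE 0.15, adjusted p 0.902). In these 3 genes all missense samples were below all wild types, narrowly so for Atp5d. Ndufc1, a complex I subunit, went the other way, at 4.70, 5.04 and 4.78 in the wild types and 5.49, 5.005 and 5.13 in the missense samples (0.37, SE 0.17, adjusted p 0.902), and its groups overlapped.

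Several subunits exist as paired isoforms, and for Cox4i and Cox6b the common form was far more abundant. Per kilobase Cox4i1 was at 429 and Cox4i2, known as the isoform of lung and low oxygen, at 2.66. Cox4i2 was at 0.02 and -0.39 in the null-set wild types and 0.85 and 0.79 in the null samples, and at 0.26, -0.02 and 1.13 in the missense-set wild types and 0.46, 0.95 and -0.50 in the missense samples. The null samples were above their wild types but below 1 wild type of the missense set. Cox6b1 was at 372 per kilobase and Cox6b2, known from testis, at 13.4, while Cox7a2 was at 302 and the supercomplex factor Cox7a2l, named like an isoform, at 328. Cox6a1 was at 404 and Cox8a at 515, and their muscle isoforms are not analysed here. Ndufa4l2, known for induction by low oxygen, was at 8.58 per kilobase and ranged from 0.66 to 1.42 in log2 level.

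Related genes were read from lists made by pathway, with earlier results of these data known. No member of these lists passed the adjusted threshold in either mutant. Of 30 genes for transcription and maintenance of mitochondrial DNA, 21 were higher in the null samples (median 0.05) and 17 in the missense samples (median 0.02). Polrmt, the mitochondrial RNA polymerase, was at 5.19 and 5.08 in the null-set wild types and 5.46 and 5.002 in the null samples. It was at 5.28, 5.01 and 5.23 in the missense-set wild types and 5.72, 5.28 and 5.63 in the missense samples, a difference of 0.37 (SE 0.16, adjusted p 0.884) with missense sample 2 level with wild type 1. Top1mt, the mitochondrial topoisomerase, was at 2.56 and 2.71 in wild type and at 3.09 and 3.50 in null, a difference of 0.66 (SE 0.26, adjusted p 0.515). Tfam, which packages mitochondrial DNA and takes part in its transcription, differed by -0.31 (SE 0.17, adjusted p 0.902) in the missense comparison.

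Of 13 regulators of nuclear respiratory genes, 8 were higher in null and 7 in missense. Ppargc1a, a coactivator of mitochondrial biogenesis, was at 2.96 and 3.90 in wild type and at 2.67 and 2.28 in null, a difference of -0.95 (SE 0.47, adjusted p 0.652). Tfeb, a regulator of lysosome genes, was at 0.84, 0.12 and 0.89 in the missense-set wild types and at 2.32, 1.87 and 2.88 in the missense samples, a difference of 1.74 (SE 0.39) with an adjusted p of 0.884. All missense samples stood above all wild types for Tfeb, at low levels.

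Assembly factors showed medians of -0.03 (16 genes, complex I) and -0.08 (24 genes, complex IV) in the null comparison, and of 0.00 and -0.09 in the missense comparison. For 8 genes that carry electrons at complex III or assemble it the medians were -0.17 (6 lower) and 0.04, and for 4 assembly factors of complex V -0.23 (3 lower) and -0.14. Only 2 factors of complex II were measured, and Sdhaf2, at -1.08 and 2.11 in the null-set wild types, set their null median of 0.56. Cyc1, the cytochrome of complex III, was at 6.91 and 6.68 in wild type and 6.49 and 6.82 in null (-0.14, SE 0.13, adjusted p 0.843). Cox14, a complex IV assembly factor, was at 5.92 and 5.11 in wild type and 4.70 and 5.01 in null (-0.66, SE 0.26, adjusted p 0.517). Coa6, a copper factor for complex IV, was at 3.44, 3.45 and 3.71 in the missense-set wild types and 3.22, 2.60 and 2.70 in the missense samples (-0.69, SE 0.22, adjusted p 0.884), with all missense samples lower. Nubpl, which delivers iron-sulphur clusters to complex I, was at 3.76, 3.70 and 4.65 against 3.49, 3.16 and 3.04 (-0.80, SE 0.30, adjusted p 0.884).

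The pathways that feed or bypass the chain stayed near the median of all genes. Of 17 genes of the citric acid cycle 10 were higher in null (median 0.02) and 13 in missense (0.04), and Suclg2, a succinate-CoA ligase subunit, was at 4.38 and 4.06 in wild type and 4.86 and 5.06 in null (0.74, SE 0.24, adjusted p 0.401). Of 19 glycolysis genes 14 were higher in null (median 0.07) and 12 in missense (0.04). Slc2a3, a glucose transporter, was at 5.12 and 4.62 in wild type and 5.62 and 5.78 in null (0.83, SE 0.22, adjusted p 0.2498), and Eno1, an enolase, at 9.001 and 8.96 against 9.38 and 9.19 (0.30, SE 0.09, adjusted p 0.331). Of 14 genes of the mitochondrial stress response 6 were higher in null and 8 in missense, with medians of -0.01 and 0.01.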

How the data were processed

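Values were taken from the 1 expression table of the series, which its file name calls filtered and normalized. Its unit, log2, was read from the deposited values: back-transformed, the named genes of each sample sum to 1000453 to 1000891, as for log2 counts scaled to a common total with an offset. Genome build GRCm39 is named in the submitters' processing notes, while the aligner, the counting tool and the gene models were not given in the sources used here. Depth is unknown. Of 14797 rows, 1 without a name was left out. The members and all lists were chosen with earlier results of these data known. The telencephalon list was used without 1 gene, which is not reported here. A linear model of the 4 groups was fitted to all 14796 genes with limma 3.58.1 in R 4.3.3 (variance trend, 6 residual and 4.83 prior degrees of freedom, 2-sided tests, Benjamini-Hochberg adjustment), and a gene was called at an adjusted p under 0.05. The method was tested on simulated data. Class medians carry no test. Named were all mitochondrial members, nuclear members of smallest p (6 in each mutant, 3 in other contrasts), isoform sets, the highest and lowest member per complex and up to 3 genes per list. Coding lengths came from GENCODE M21 (GRCm38), by symbol, for 89 of 91 members and 95.9% of genes, with no coordinates used. Python 3.11.15, pandas 2.3.3 and matplotlib 3.10.9 made tables and figures. Alternatives were no title-number term, median centring, quantile normalization, rescaling without the mitochondrial genes, an added offset of 1, only genes at or above the 25th percentile of mean level, robust variances, no variance trend, weighted samples, the samples of a single title number, and each sample left out in turn. Removal of a length trend, a class gap from median deviations, and counts of non-overlap without 2 libraries, were chosen after seeing the data. Groups left with 1 sample were taken to vary like the others.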

Additional observations from a re-analysis of the deposited data

How the results depend on the processing

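No member was called in any of the 4 contrasts under any setting, and the lowest adjusted p of the 26 named gene results was 0.121 (mt-Co3, quantile-normalized samples). Of 554 gene values under alternatives, 553 kept their direction and their side of the threshold. The exception was mt-Co3 in the null effect minus the missense effect, at -0.071 (adjusted p 0.983) with no title-number term. Leaving out each sample gave null medians of -0.38 (without wild type 2 of the null set) to 0.087 (without wild type 1) for the nuclear class, and class gaps of -0.0085 to 0.63 from median levels, or 0.09 to 0.66 from median deviations, for the same samples. The mitochondrial null median stayed at 0.16 to 0.35 under all settings, and was 0.20 with the length trend removed, where the nuclear median was -0.19. The missense gap was -0.02 from levels and 0.07 from deviations without missense sample 2, and the mitochondrial missense median was -0.03 without wild type 1 of the missense set. No member is a pseudogene, so leaving out pseudogenes changed nothing. The difference and the wild-type contrast could not be fitted with 1 title number alone, nor the latter without a title-number term. No paired analysis was possible because the compared groups share fewer than 2 replicate numbers in the labels. With 2 or 3 samples a group, small differences were not detectable.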
